A study of Mus musculus with 13 samples.

Results

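The subject is the set of RNAs that arrays measured in round spermatids of wild type (WT) mice. Its members are the samples whose titles call them WT spermatid 1 to 4, which are 4 of the 13 samples, and no measured value was used to choose them. The WT males carried no transgene. They are set beside 3 samples labelled shSLY (deficient for Sly), 3 labelled shSLX1 (deficient for Slx and Slxl1) and 3 labelled shSLX1shSLY (deficient for all of these). These knockdown lines carry transgenes that express short hairpin RNAs against these multicopy sex-linked genes. All 13 samples came from young adult males of about 8 weeks on the MF1YRIII background. Each sample was a pool of testes from several males, from which round spermatids were enriched either by elutriation or by settling under gravity. The labels do not tell which of the 2 procedures gave which sample. The preparations were not pure, so cells other than round spermatids could contribute RNA.

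Round spermatids are the haploid cells that follow the second meiotic division. They build the acrosome and the first parts of the tail, and they store many mRNAs that are translated only days later, when the nucleus condenses and histones give way to transition proteins and then to protamines. Many of their metabolic enzymes, chaperones and cytoskeletal proteins come from genes that are used only in the male germ line and that have a relative in somatic cells. The X and Y chromosomes are largely silenced in meiosis and stay repressed in spermatids, while multicopy sex-linked genes are transcribed there.

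Each sample was hybridized to 1 single-colour Illumina mouse array of 45281 probes. The deposited signal is the mean brightness of the beads of a probe on a linear scale, without background subtraction, so an absent RNA still has a signal. The detection p compares a probe with the negative control beads of its own array, and a probe was counted as detected at a detection p under 0.05. On the WT arrays 17912, 18251, 16110 and 17296 probes were detected. The median signal of the undetected probes was 55.3 and 57.9 on WT 1 and 2, and 76.5 and 76.4 on WT 3 and 4, so the background was higher on the second pair. For comparisons between arrays, neqc values were used, which are background-corrected, quantile-normalized log2 values. Signals of different probes depend on the probe as well as on the RNA, so no fold between genes is given. Arrays have no read depth, and precision is limited by there being only 4 of them. Sly, the target of 1 transgene, had neqc values that averaged 10.06 on the WT arrays and 10.06 on the 9 knockdown arrays, with a limma difference of -0.00 (SE 0.22; adjusted p = 0.999). The mean of the lines includes shSLX1, in which Sly was not the target. This pooled difference of the single Sly probe therefore does not check the labels of the knockdown lines. Their names are used as given, and Slx and Slxl1 had no named probe.

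The 4 marker genes of round spermatids were detected on all 4 WT arrays. Prm1, which encodes protamine 1, a DNA-packing protein of sperm, had signals of 35387, 36609.7, 38459 and 35568 on WT 1 to 4. Tnp2, which encodes a transition protein that replaces histones before protamines do, had 1873, 2221, 1548 and 1355. These signals of Prm1 stood within a narrow band on every array, with a neqc value of 15.02 ± 0.16 (SD, n = 4). Hspa2, a chaperone of meiotic and postmeiotic germ cells, had signals of 30151, 31393, 29823 and 29422. Acrv1, an acrosomal protein, had 15502, 18449, 11349 and 14544. The markers of the labelled cell type were thus present on every WT array. Hspa2 is also transcribed in spermatocytes, so it does not separate the stages.

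The promoters of both marker genes of nuclear condensation, of Tnp1 and of Acrv1 are shown because these genes stand for the chromatin and acrosome programmes of this cell. Each line gives the 120 bases before the RefSeq start of the gene, from RefSeq on GRCm38.p6, 5′ to 3′ on the gene's strand. The windows are chr16:10796824-10796943 (- strand) for Prm1, chr1:73015900-73016019 (- strand) for Tnp1, chr16:10788656-10788775 (- strand) for Tnp2 and chr9:36693100-36693219 (+ strand) for Acrv1. Capitals mark matches to TGACNTCA on either strand, a form of the site that cAMP-response factors such as CREM bind, and to TATA between 40 and 20 bases before the start.
Prm1: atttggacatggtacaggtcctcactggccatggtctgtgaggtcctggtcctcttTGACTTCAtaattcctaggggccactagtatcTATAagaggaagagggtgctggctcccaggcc
Tnp1: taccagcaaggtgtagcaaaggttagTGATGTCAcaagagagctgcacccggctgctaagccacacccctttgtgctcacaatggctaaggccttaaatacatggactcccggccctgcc
Tnp2: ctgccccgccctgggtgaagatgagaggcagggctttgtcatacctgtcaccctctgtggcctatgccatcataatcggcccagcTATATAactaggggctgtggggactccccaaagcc
Acrv1: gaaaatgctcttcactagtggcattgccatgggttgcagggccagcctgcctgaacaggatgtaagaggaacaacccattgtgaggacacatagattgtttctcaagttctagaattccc
Prm1 held both motifs, Tnp1 held TGACNTCA on the opposite strand, Tnp2 held overlapping copies of TATA, and Acrv1 held neither in this window. TGACNTCA, which was searched after these sequences had been seen, stood in the 250 bases before the start of 7.59% of all 27025 RefSeq promoters. Of the 81 spermatid list genes below that were detected on all 4 WT arrays and had a promoter in the table, 18 held it (22.2%), among them Prm1, Prm3, Tnp1, Hmgb4, Akap3, Akap4 and Gapdhs. Over all genes on the array it stood before 8.14% of those detected on all 4 WT arrays and 5.64% of the others. The core TGACGT stood before 10.2% of the genes detected on all 4 and 6.11% of the others, against 6.56% of all promoters. Of the same 81 spermatid list genes only 5 held this core (6.17%), so the higher share seen for TGACNTCA was not seen for it. TATA stood at 40 to 20 bases before 3.39% of the genes detected on all 4 and 8.51% of the others, against 5.82% of all promoters. These shares describe letters in a window, and no factor binding was measured.

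Over all genes, 8570 of the 19057 named genes on the array (45.0%) had a probe that was detected on all 4 WT arrays. Another 7918 had no probe detected on any WT array, and the best probe of 1009, 835 and 725 genes was detected on 1, 2 and 3 arrays. Detection did not always hold for every probe of a gene. Of 5055 detected genes with more than 1 probe, 1603 had every probe detected on all 4 arrays and 2782 had another probe detected on none. A gene that is listed here as undetected is undetected by its probes and may still be transcribed.

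The 7 lists of spermatid genes lay far above that share, with 81.8% to 100% of their measured members detected on all 4 WT arrays. Among chromatin proteins, 11 of 13 were detected on all 4 arrays. Tnp1, the other transition protein, had signals of 15553, 17333, 17661 and 18569.9. H1f7, a linker histone of spermatids, had 4548, 5613, 2887 and 3679, and H2bl1, a histone H2B variant of male germ cells, had 13324, 15112, 8649 and 9801. Chd5, a chromatin remodeller of spermatids, had 4749, 5098, 2309 and 2551, so WT 1 and 2 were above WT 3 and 4 for this probe. H1f6, the linker histone of spermatocytes, was only just detected, with 109, 97.8, 94.0 and 98.3. H2bc1, a testis histone H2B, was detected on no array.

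Acrosome and gamete fusion genes were detected for 20 of 21. Acr, the acrosomal protease acrosin, had signals of 5943, 6228, 4216 and 4793, and Izumo1, the sperm protein that binds Juno on the egg, had 4527, 5739.9, 2995 and 3413. Spam1, the hyaluronidase of the sperm surface, had 3711, 4291, 5211 and 5253. The signal of this Spam1 probe was lower on WT 1 and 2 than on WT 3 and 4. Another probe of Spam1, also detected on all 4 arrays, had 237, 275, 192 and 188, in the opposite direction. Actl9, an actin-like protein of the sperm head, had 491, 591, 429.9 and 454, and Cylc1, a protein of the perinuclear theca, was detected on no array although Cylc2 was.

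For the flagellum, 28 of 29 genes were detected on all 4 arrays, and Ropn1l was detected on none. Odf1, of the outer dense fibres, had signals of 30649.5, 36259.6, 26045 and 27281. Akap4, the main protein of the fibrous sheath and an X-linked gene, had 7385, 10134, 6775 and 6760.5. Smcp, of the mitochondrial sheath, had 19209, 23984, 17002 and 17671. The signals of these 3 genes were far above background on every WT array. All of Catsper1, Catsper2, Catsper3 and Catsper4, the pore subunits of the sperm calcium channel, were detected, and Catsper2 had 12465, 13173, 12947 and 13092. Dnah1, an axonemal dynein heavy chain, was barely above background, with 78.4, 83.2, 96.1 and 97.8.

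Among kinases and signalling genes 9 of 11 were detected on all 4 arrays. Tssk6, a kinase of the testis-specific serine kinase family, had 8607, 9402, 5649.9 and 5976, and Tssk2 had 6148, 8219, 5054 and 5785, while Tssk1 was detected on none. Adcy10, the soluble adenylyl cyclase, had 6298, 7464, 4874 and 5419. Prkaca, the catalytic subunit of protein kinase A, was detected on all 4 arrays as well. Camk4, a calcium-dependent kinase, was detected on 3 of 4 arrays.

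Of the regulators of postmeiotic transcription, 10 of 12 were detected on all 4 arrays. Crem, the cAMP-response factor of spermatids, had signals of 9589, 9469, 5969.5 and 6669.5, and Fhl5, its coactivator, had 12109, 13485, 8859.7 and 9509. Rfx2, a factor of ciliary and spermatid genes, had 12182, 13285, 8907 and 9775. These 3 signals were all higher on WT 1 and 2 than on WT 3 and 4 before normalization, and after it their differences were 0.20, 0.12 and 0.09 on the log2 scale. Tbpl1 and Gtf2a1l, germ cell relatives of general transcription factors, were detected on no array by their single probes.

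Genes of stored mRNA and of the chromatoid body, the RNA granule of spermatids, were detected for 16 of 17. Ybx2, the germ cell Y-box protein that binds stored mRNA, had 21595, 23144, 13939.6 and 15752. Ddx25, an RNA helicase of spermatids, had 22757, 25192, 21346 and 21599, and Tdrd6, a scaffold of the chromatoid body, had 17673, 18143, 14085 and 14089. Ddx4, the vasa helicase of the germ line, had 1383, 1405, 1420.5 and 1507, which was nearly the same on all 4 arrays. Mael was detected on none.

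**Figure D1:**
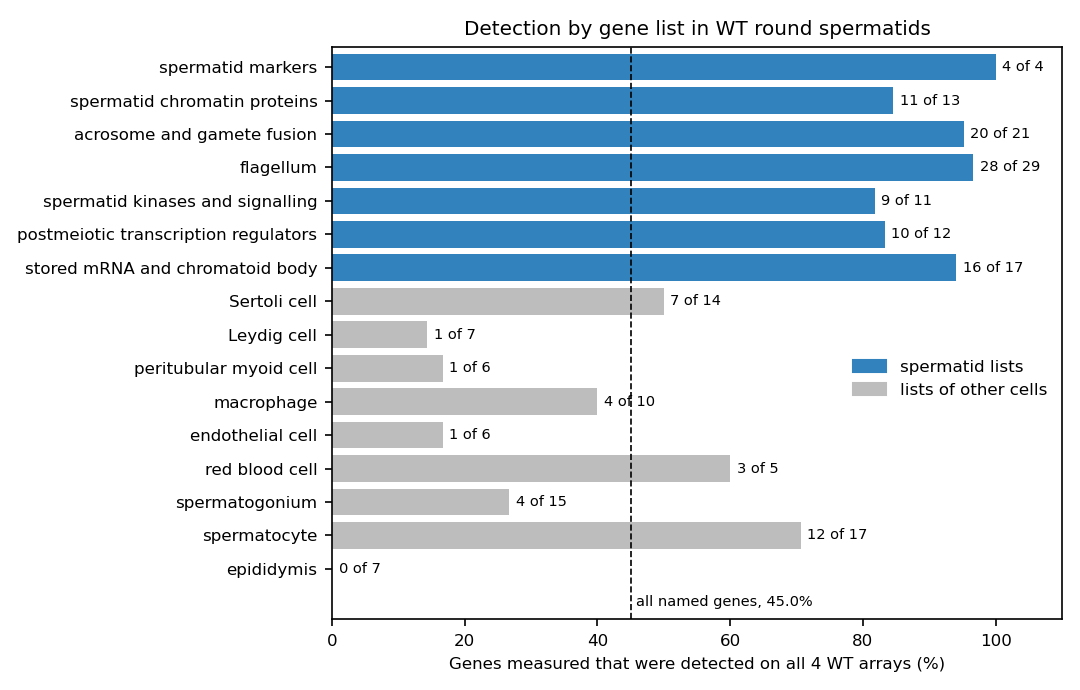
Share of the measured genes of each list that were detected on all 4 WT arrays, in percent on the horizontal axis, with the counts beside the bars; blue bars are spermatid lists, grey bars are lists of other cells, and the dashed line marks the 45.0% of all named genes. The spermatid lists reach 81.8% to 100%, and the lists of other cells run from 0 of 7 for epididymis to 12 of 17 for spermatocyte.

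The 25 brightest genes were taken by the mean rank of their brightest probe on the WT arrays. Ldhc, the lactate dehydrogenase of germ cells, came first with signals of 32324, 43128, 48120.3 and 44605. Its signal was the highest of all probes on WT 2, 3 and 4, and it ranked 6 among named genes on WT 1. Fabp9, a fatty acid-binding protein of spermatids, had 34038, 37678, 36849.7 and 39501, and Mt1, a metallothionein, had 34768, 37922, 29149.8 and 27433. Of the 25, 19 were among the 25 brightest on every array. Rank 2 was held by Ubb-ps, with 31986, 38088, 41355 and 41146, a ubiquitin B pseudogene whose probe may not separate it from Ubb itself.

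Several genes among the 25 build the tail. Beside Odf1 they include Rsph1, of the radial spoke head, with 28017, 29779.7, 25099 and 26291, Catsperz, of the sperm calcium channel, with 28389.5, 29322, 22898 and 26115, and Tcte3, a dynein light chain, with 33724, 35259, 26111 and 29039. Another probe of Tcte3 was detected on no array. Gpx4, a glutathione peroxidase that also forms the capsule of sperm mitochondria, had 26320.1, 29781, 22047 and 23202, and Spata19, a mitochondrial protein of sperm, had 28518, 29463, 21487 and 24709.6. Genes that every cell uses were there as well, namely Rpl41 and Rps29 of the ribosome, with 30996, 34947, 25201 and 30634 for Rpl41 and 29362, 29721, 20733 and 22655 for Rps29. Pgp, a phosphoglycolate phosphatase, had 26640.1, 35109.9, 38548 and 38952, which was lower on WT 1 than on the other arrays. The 100 brightest probes held up to 12.2% of the summed signal of an array, and 25 of those 100 probes, taken by mean rank, had no single gene name and are not described.

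**Figure D2:**
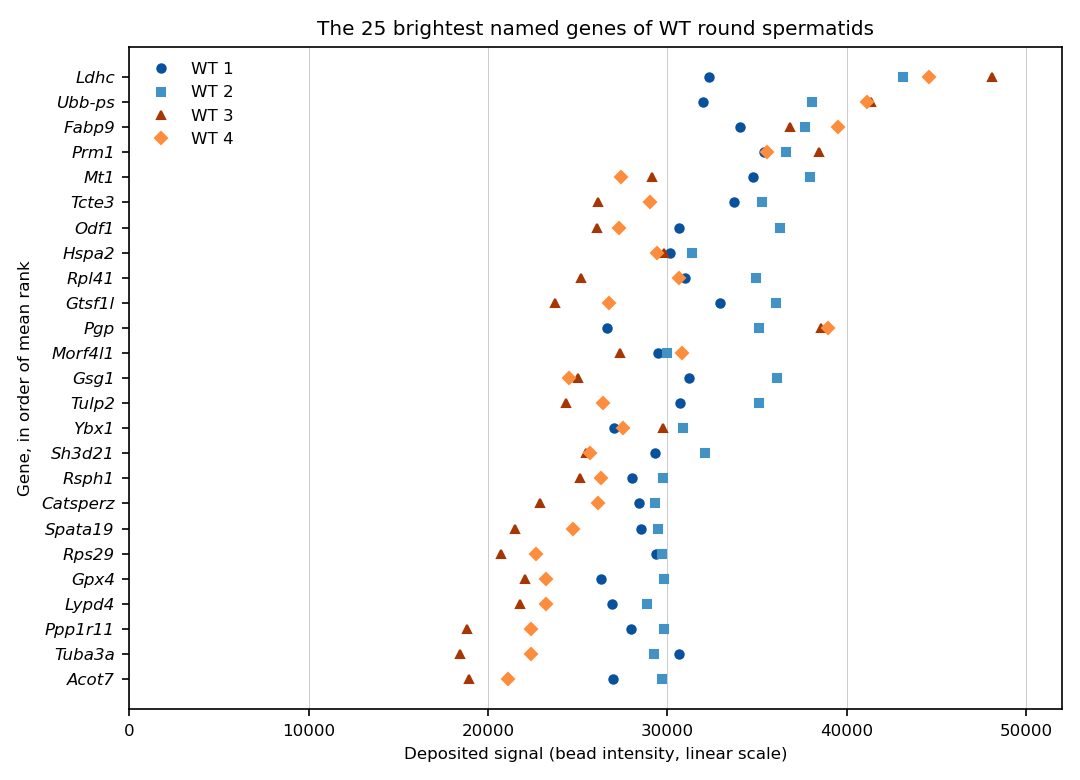
Deposited signal (bead brightness, linear scale from 0) of the 25 brightest named genes on each WT array, 1 point per array, genes ordered by mean rank. Ldhc reaches 48120 on WT 3 and stands at 32324 on WT 1, and for genes such as Acot7 the points of WT 1 and 2 lie right of those of WT 3 and 4.

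Testis isoforms were looked at beside their somatic relatives in 42 pairs of genes. Of the testis isoforms 30 of 37 measured were detected on all 4 WT arrays, and of the somatic relatives 25 of 36, both above the 45.0% of all named genes. Both genes were measured in 33 pairs. Both were detected in 18 of these, only the testis isoform in 8, only the somatic relative in 4, and neither in 3. The pairs were listed for genes known in germ cells, so these counts describe the list.

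In glycolysis, the pathway that feeds the sperm tail, both genes of most pairs were detected. Pgk2, the phosphoglycerate kinase of the germ line, had signals of 15675, 17018, 12761 and 15074, and its X-linked relative Pgk1 had 165, 173, 123 and 144. Gapdhs, the spermatid glyceraldehyde-3-phosphate dehydrogenase, had 8633, 10174, 7448 and 8359.8, and Gapdh had 219, 255, 156 and 171. Ldha, the somatic lactate dehydrogenase beside Ldhc, had 12517, 13520.0, 10451 and 11029. Both members of these 3 pairs were thus present on every array, the X-linked Pgk1 included, though 2 other probes of Pgk1 were detected on none. Pgam2 had 11288, 12265, 10029 and 10458 and Pgam1 had 99.3, 82.7, 103 and 116. Pdha2, the intronless pyruvate dehydrogenase subunit of germ cells, was detected on no array, and the X-linked Pdha1 on 1.

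Mitochondrial pairs went both ways. Cox6b2, a testis subunit of cytochrome c oxidase, had 4922, 4676, 2829.9 and 3059.6 and Cox6b1 had 679, 594, 399 and 451. Cox7b2 was detected on all 4 arrays with 194, 187, 135 and 133, and Cox7b on none. Cycs, the somatic cytochrome c, was detected with 197, 174, 139.5 and 186, while Cyct, the testis form, was detected on no array by its single probe. Slc25a31 and Slc25a4, carriers of ATP and ADP, were both undetected on every array.

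Chaperone, protein turnover and cytoskeletal pairs with both genes measured had either both members or only the testis member detected on all 4 arrays. Both members were detected on all 4 arrays for Hspa2 and Hspa8, Calr3 and Calr, Pdilt and P4hb, Psma8 and Psma7, Actl7b and Actb, and Tuba3a and Tuba1b. Only the testis member was detected in several other pairs. Clgn, the germ cell relative of calnexin, had 14959, 16623, 13323 and 13352, and Canx was detected on no array. Hspa1l, a heat shock protein of spermatids, had 7513, 10089.8, 5271 and 6657, and the stress-inducible Hspa1a was detected on none. Ccna1, the cyclin A of male meiosis, had 3487, 3425, 2562 and 3219, and Ccna2, the cyclin A of dividing somatic cells, was on none. Capza3 and Taf7l were likewise detected on all 4 arrays while Capza2 and Taf7 were detected on none, and Capza3 had 12007, 12877, 10298 and 9839.6. The undetected relatives Capza2 and Taf7 had 3 probes each, none of them detected on any WT array.

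Only the somatic member was detected for some general transcription factors, in contrast to Taf7l and Taf7 above. Tbp, the TATA-binding protein, had 2300.5, 2236, 2479.6 and 2536, and Tbpl1 was on no array. Gtf2a1 was detected by 1 probe, with a neqc value of 7.63 ± 0.23 (SD, n = 4), and by none of its 3 other probes, and Gtf2a1l was on none. RNA-binding pairs had both members: Ybx1 had 27001, 30845, 29772 and 27539 beside the values of Ybx2 above, and Papolb, the testis poly(A) polymerase, had 10471, 10535, 8284 and 9143 beside 1166, 1455, 1162 and 1133 for Papola. The 2 other probes of Ybx1 were detected on 1 array and on none. Tuba3a had 30627, 29268, 18419 and 22403 and Tuba1b had 2954, 3667, 1585 and 1707, and probes for such near-identical tubulins may not separate them.

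**Figure D3:**
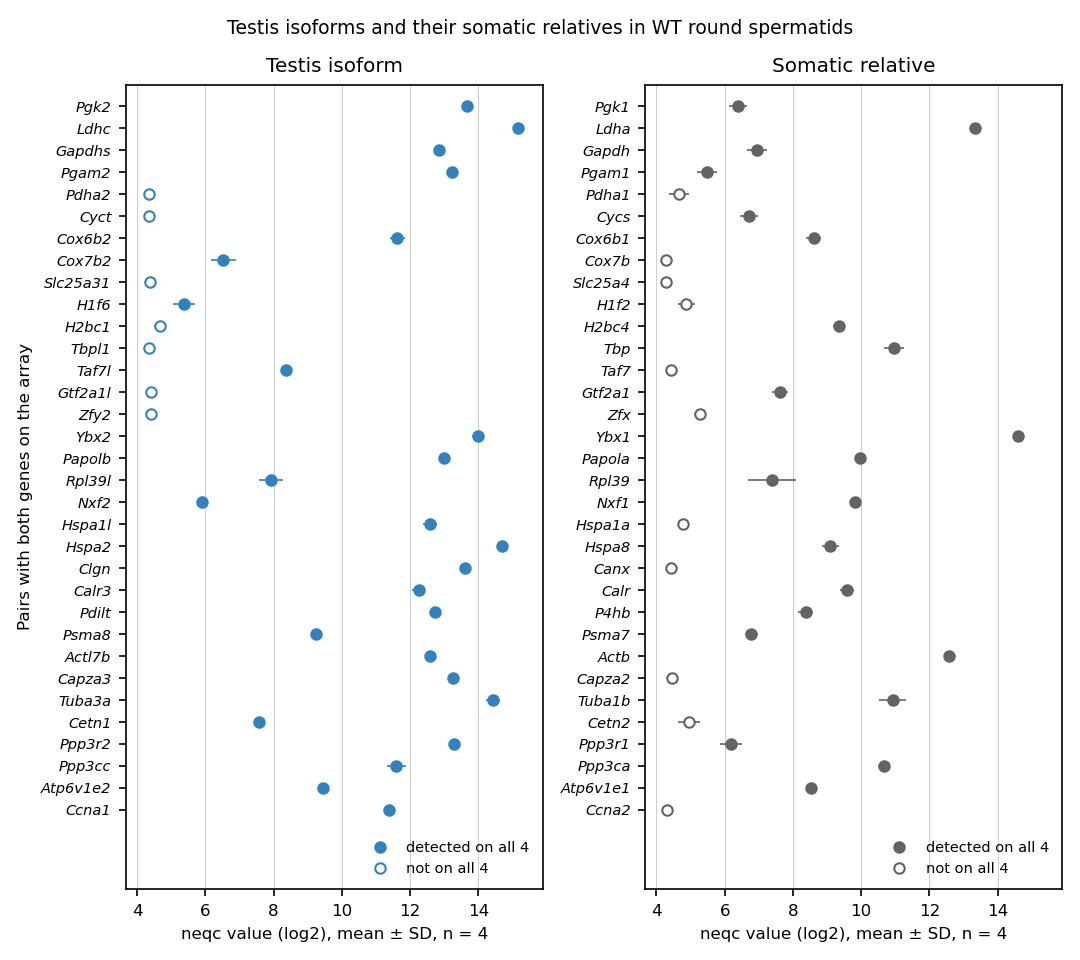
neqc values (log2) of 33 testis isoforms and, on the same line, their somatic relatives, as means with SD over the 4 WT arrays; filled points were detected on all 4 arrays and open points on fewer. Open points lie at the low end, and positions of different probes are not a comparison of RNA amounts. Filled points stand on both sides for 18 pairs, on the testis side only for 8 and on the somatic side only for 4.

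By chromosome, 8313 of 18251 autosomal genes (45.5%) were detected on all 4 WT arrays, from 39.5% on chromosome 7 to 53.0% on chromosome 5. On the X chromosome 212 of 710 genes (29.9%) were detected, a lower share than on any autosome, and on the Y chromosome 13 of 19 (68.4%). Of the brightest X-linked genes, 3 are named here, chosen after their values were seen. Prdx4, a peroxiredoxin that many cell types use, had signals of 8020.1, 10652, 6944 and 7703. H2al1e, a histone H2A-like gene of spermatids with near-identical copies, had signals of 19942, 22936, 13505 and 15878, and Cypt3, of a family of cysteine-rich perinuclear theca genes, had 11520.3, 13635, 8332 and 8651. Among Y-linked genes Ssty2, a multicopy gene of spermatids, had 10650.3, 12428, 9146 and 9469.7, and Ssty1 had 4742, 4986, 3105 and 3220.2. Sly had 1534, 1856, 983 and 1051, and Eif2s3y, a single-copy translation factor gene, had 809.6, 875, 813 and 893. Sry, Zfy2 and Kdm5d were detected on no array. Probes for multicopy genes may read several copies at once, so their signals belong to the family.

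Marker lists of other cells were checked on the WT arrays, where fewer cells of a type and less RNA per cell cannot be told apart. Spermatocyte genes were the most often detected of these lists, 12 of 17. Stag3, a meiotic cohesin, had 5944, 5795, 4744 and 5421, and Syce1, of the synaptonemal complex, had 4198, 3783, 2548 and 3021. Sycp3, the lateral element protein, and Dmc1, the meiotic recombinase, were detected on no array, as were Hormad1 and Tex15. Spermatid RNA includes transcripts made in meiosis, so these genes do not count spermatocytes. Of 15 spermatogonial genes 4 were detected, Kit, Uchl1, Id4 and Sohlh1, and Gfra1, Stra8, Dmrt1, Nanos3 and Lin28a were on none. Kit had 216, 227, 152 and 157, and a shortened Kit transcript is known from spermatids.

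Among somatic cells of the testis, 7 of 14 Sertoli cell genes were detected on all 4 arrays, a share close to that of all named genes. Aard had 686, 598, 305 and 441, and Cldn11, the tight junction protein of the blood-testis barrier, had 437, 358, 175 and 222. Sox9, the defining transcription factor, was near background with 102, 102, 98.2 and 107. Amh, Gata1, Gata4 and Fshr were on no array. The summed level of the list, on the linear neqc scale, was 1550, 1410, 888 and 1050 on WT 1 to 4 and 685 to 1760 on the knockdown arrays. Of 7 Leydig cell genes only Insl3, a peptide hormone, was detected, with 219, 221, 156 and 199 and another probe on no array, while Star, Hsd3b1, Hsd3b6 and Hsd17b3 were on none. In lists of 6 genes, 1 was detected for peritubular myoid cells (Acta2) and for endothelial cells (Vwf), and none of 7 for epididymis.

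Of these lists, red blood cell genes differed most between the WT preparations. Hba-a1, a chain of haemoglobin alpha, had signals of 269 and 994 on WT 1 and 2, against 130.0 and 113 on WT 3 and 4. Hbb-bs, of haemoglobin beta, had 361 and 1286 on WT 1 and 2, against 133 and 124 on WT 3 and 4, and Hbb-bt had 242 and 833 on WT 1 and 2, against 122 and 107 on WT 3 and 4. For all 3 genes WT 2 was the highest, WT 1 came next and WT 3 and 4 were near background, and probes of these near-identical copies may share RNA. Alas2, the haem synthesis enzyme of red cell precursors, was on no array. The summed level of the list was 546, 2110, 179 and 121 on the WT arrays and 152 to 3350 on the knockdown arrays. Of 10 macrophage genes 4 were detected on all 4 arrays. Fcgr3, an Fc receptor gene, had 950.2, 1043, 870.4 and 911 and made up most of the summed level of the list, but it was not higher in WT 1 and 2 after normalization (-0.16 on the log2 scale). Lyz2, the macrophage lysozyme, had 131 and 267 on WT 1 and 2, against 108 and 113 on WT 3 and 4, and the summed level of this list was 980, 1220, 963 and 967 on WT 1 to 4 and 858 to 1380 on the knockdown arrays.

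The spread between WT arrays was measured on the 8553 genes whose shown probe was detected on all 4. The question was whether WT 1 and 2 differ from WT 3 and 4 by more than the arrays of a pair differ from each other. The SD of the log2 difference over genes was 0.201 between WT 1 and WT 2 and 0.211 between WT 3 and WT 4, and between arrays of different pairs it was 0.363 to 0.382. Genes that differed over 1.5-fold numbered 93 (1.09%) and 139 (1.63%) within the pairs and 745 to 920 (8.71% to 10.8%) between them. All 4 arrays were still close, with Pearson's r across genes of 0.996 within pairs and 0.986 to 0.987 between them, where genes are not independent replicates. The median SD of a gene over the 4 arrays was 0.166, with 0.188 in the lowest 2139 genes by level and 0.133 in the highest 2138.

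The pairs did not overlap for 5544 genes (64.8%). They did not overlap and differed over 1.5-fold for 658 genes (7.69%), of which 355 (4.15%) were higher and 303 (3.54%) lower in WT 1 and 2. No test is given, since 2 arrays against 2 cannot go below an exact two-sided p of 0.333. With median scaling in place of quantile normalization, 1950 genes were higher and 55 lower, beside a shift of the median of all genes by 0.35 on the log2 scale, so the balance of directions rests on the normalization. The level of the background moved with this split, as given above, and its part in it was not tested. Over probes undetected on all 13 arrays, r was 0.655 between WT 1 and 2, 0.488 between WT 3 and 4 and 0.522 to 0.545 between the pairs.

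Ntpcr, a nucleoside triphosphatase, showed the largest difference, with signals of 2975 and 1931 on WT 1 and 2, against 108 and 112 on WT 3 and 4, which is 5.14 on the log2 scale of neqc values. The haemoglobin genes followed, with 2.75 for Hbb-bs, 2.50 for Hba-a1 and 2.45 for Hbb-bt. Chd4, the remodeller of the NuRD complex, had 2061 and 1562 on WT 1 and 2, against 377 and 464 on WT 3 and 4 (1.92). The samples of both pairs share the WT label and the MF1YRIII background, and genetic differences between the pools were not tested. Per1, a clock gene, had 1841 and 2125 on WT 1 and 2, against 535 and 631 on WT 3 and 4 (1.53), and the other genes among the 10 largest were Lrsam1, Speer4d, Ttbk1 and Defb19.

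On the other side, Ckmt2, the mitochondrial creatine kinase of striated muscle, had 217 and 245 on WT 1 and 2, against 903 and 879 on WT 3 and 4 (-2.48). Tssk5, a kinase of the testis-specific family, had 127 and 126 on WT 1 and 2, against 227 and 256 on WT 3 and 4 (-1.45), and Hsd3b2 had 979 and 1098 on WT 1 and 2, against 2371 and 2268 on WT 3 and 4 (-1.57). The agouti gene, written a, whose alleles set coat colour, had 118 and 99.6 on WT 1 and 2, against 203 and 182 on WT 3 and 4 (-1.32). All 4 genes were lower on both arrays of the first pair. The remaining 6 were 4930415O20Rik, Elf2, Fscn3, Atg3, Nop58 and Il3ra.

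**Figure D4:**
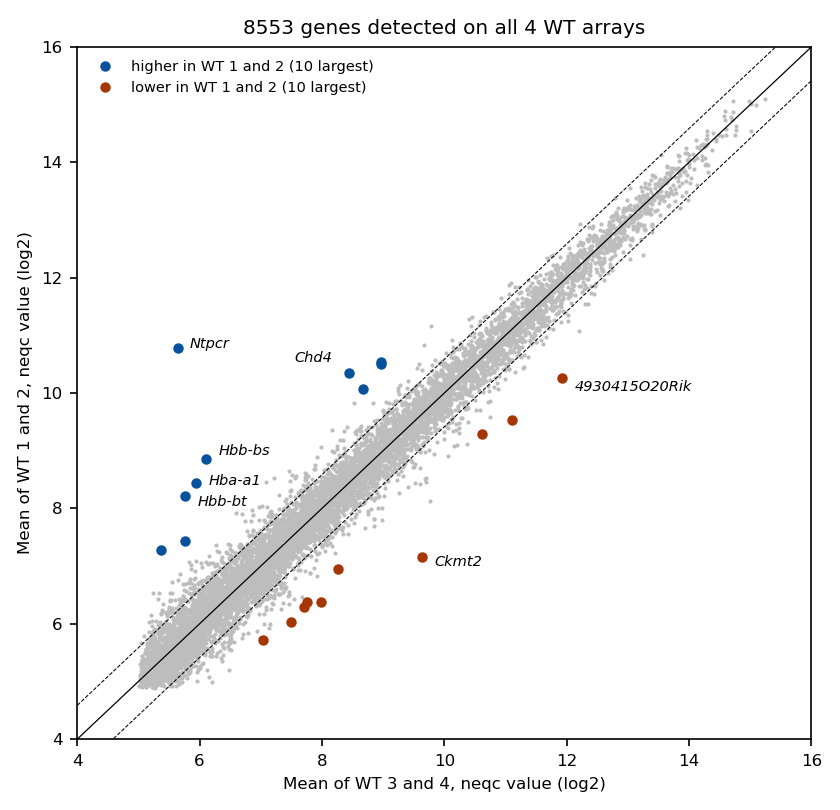
Mean neqc value (log2) of WT 1 and 2, vertical axis, against that of WT 3 and 4, horizontal axis, for the 8553 genes detected on all 4 WT arrays; the solid line marks equality, the dashed lines 1.5-fold, and coloured points the 10 largest differences each way. Most genes lie between the dashed lines, and Ntpcr stands at 10.78 for WT 1 and 2 against 5.64 for WT 3 and 4.

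By list, 5 of the 95 genes of the spermatid lists detected on all 4 arrays passed the rule for this split, beside the 7.69% of all genes. None of 28 flagellum genes, of 9 kinases and of 16 stored mRNA genes passed the rule, and the medians of the spermatid lists lay between -0.13 and 0.25. Chd5 (0.68) and Zfp541 (0.71), a regulator of meiotic exit, were higher in WT 1 and 2. Brdt (-0.61), a bromodomain protein of histone removal, Spaca1 (-0.67) and Spam1 (-0.76) were lower. These values are of the shown probes, and other detected probes did not all go the same way in the deposited signal. Another Brdt probe had 885 and 837 on WT 1 and 2, against 327 and 353 on WT 3 and 4. Another Spam1 probe had 237 and 275, against 192 and 188. For Chd5, 1 other probe had 324 and 348, against 390 and 392, while its remaining detected probes were higher on WT 1 and 2. In the lists of other cells, the genes that passed the rule were mostly higher in WT 1 and 2. All 3 haemoglobin genes, 3 of 4 macrophage genes (Adgre1, C1qb and Lyz2), 3 of 7 Sertoli cell genes (Amhr2, Cldn11 and Defb36), Acta2, and Uchl1 and Sohlh1 of 4 spermatogonial genes were higher in WT 1 and 2 by the rule. Over all genes compared, 4.15% were higher and 3.54% lower by it. None of these lists had a gene that was lower, which at that share is usual for lists this short. Fcgr3 (-0.16), a macrophage list gene, Cst9 (-0.16) of the Sertoli cell list and Id4 (-0.14) of the spermatogonial list differed in the other direction by less than 1.5-fold. Sycp1 (-0.76) and Sycp2 (-0.98) of 12 spermatocyte genes were lower. Many of the markers of other cells were near background, which itself differed between the pairs, and the part of that background in their shift was not tested.

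**Figure D5:**
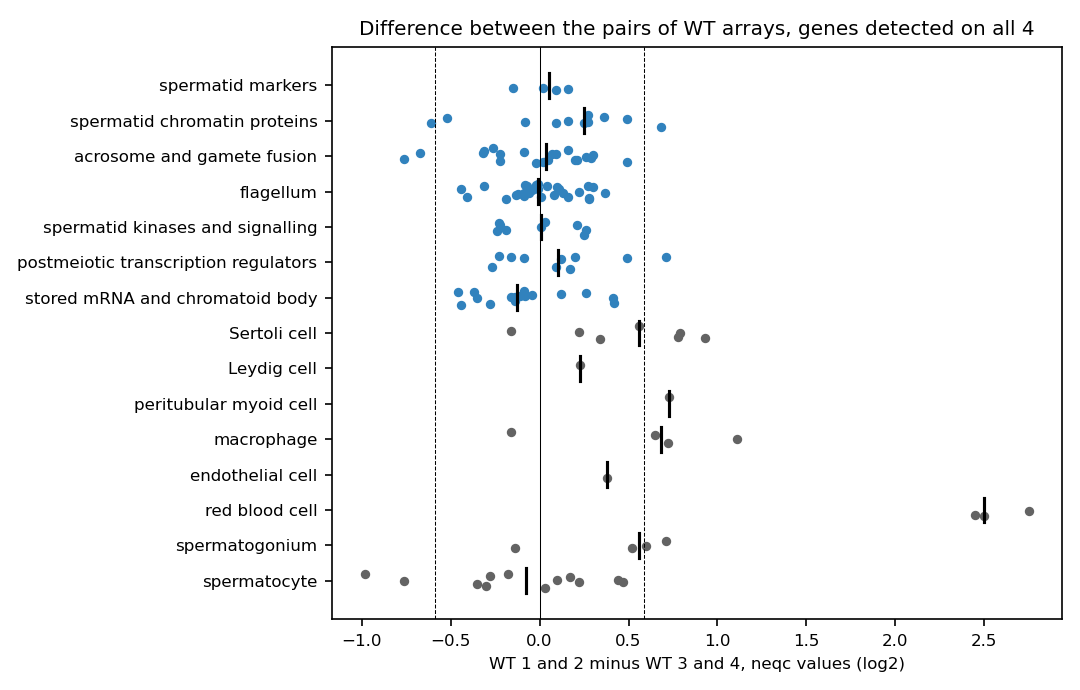
Difference of WT 1 and 2 minus WT 3 and 4 in neqc values (log2) for each list gene detected on all 4 WT arrays, 1 point per gene, with a black tick at the median of the list and dashed lines at 1.5-fold. The spermatid lists centre near 0, and the red blood cell list stands at a median of 2.50.

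Single arrays stood apart for few genes. Gfer, a sulfhydryl oxidase of mitochondria, had signals of 3794, 2532, 1860.2 and 523 on WT 1 to 4, so WT 4 was low. Atg3, an enzyme of autophagy, had 91.0, 263, 256 and 307, with WT 1 low. For the 3 haemoglobin genes WT 2 was the array with the gap. A gap of more than 1 on the log2 scale to the nearest of the others was seen for 8 genes on WT 2 (6 high, 2 low), 6 on WT 1 (2 high, 4 low), 4 on WT 3 (1 high, 3 low) and 2 on WT 4, both low.

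The WT arrays were then set against the mean of the 3 knockdown lines, to ask which transcripts of WT spermatids stood apart from the average of these lines. In limma's fit over the 13 arrays, with Benjamini-Hochberg adjustment over 14660 genes or unnamed probes, 181 (1.23%) passed an adjusted p of 0.05 and a fold of 1.5. Of these, 38 (0.259%) were higher and 143 (0.975%) lower in WT. An unadjusted p under 0.05 was seen for 2798.

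No marker gene of round spermatids passed. The 4 marker genes had differences of -0.09 (SE 0.10; adjusted p = 0.618) for Prm1, -0.20 (SE 0.11; adjusted p = 0.333) for Tnp2, 0.04 (SE 0.11; adjusted p = 0.865) for Hspa2 and 0.07 (SE 0.11; adjusted p = 0.734) for Acrv1. None of the 25 brightest genes was called (1 with an unadjusted p under 0.05), and none of 59 tested genes of the isoform pairs (10 with an unadjusted p under 0.05). Over all 14660 genes or probes tested, 1.23% were called and 2798 had an unadjusted p under 0.05. At that share of calls, no call is usual for sets this small. Over the lists, only Tex11, an X-linked meiotic gene of the spermatocyte list, was called, with -0.79 (SE 0.15; adjusted p = 0.0143). Missing the threshold does not show that these genes had equal levels.

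The called genes lay unevenly over the chromosomes. On the X, 41 of 355 genes tested were lower in WT and none was higher, on the Y 2 of 16 were lower, and on the autosomes 54 were lower and 27 higher of 10744. Tgif2lx1, an X-linked homeobox gene of the testis, had neqc values of 8.82, 8.95, 8.81 and 8.88 on the WT arrays, against a lowest of 8.82, a median of 10.33 and a highest of 10.86 on the knockdown arrays, a difference of -1.15 (SE 0.12; adjusted p = 0.000526). Its highest WT value was above the lowest knockdown value, so the groups overlapped. Cypt15, an X-linked gene of the same family as Cypt3, had 7.74, 7.82, 7.22 and 7.31 on the WT arrays, against a lowest of 6.87, a median of 9.10 and a highest of 9.96 on the knockdown arrays, a difference of -1.22 (SE 0.21; adjusted p = 0.00975).

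Among autosomal genes lower in WT, 4 were tissue kallikreins on chromosome 7. Klk1b26 had 7.94, 8.39, 7.52 and 7.32 on the WT arrays, against a lowest of 9.35, a median of 10.03 and a highest of 10.24 on the knockdown arrays, a difference of -2.10 (SE 0.22; adjusted p = 0.000526), with no overlap. Klk1, Klk1b5 and Klk1b9 differed by -1.43 (SE 0.21; adjusted p = 0.00482), -1.40 (SE 0.19; adjusted p = 0.00417) and -1.15 (SE 0.18; adjusted p = 0.00807). Kallikreins are near-identical proteases, and their probes may read each other's RNA. Nnmt, nicotinamide N-methyltransferase, was detected on no WT array and on 7 of 9 knockdown arrays (limma adjusted p = 0.0175). Set against the lowest detected signal of each WT array, the mean of the knockdown lines was at least 4.61-fold higher. The groups overlapped, since the lowest knockdown value, 4.75, was below the 4.83 of WT 3, so the bound is of the mean and not of each array. This bound holds for the fit without array sets. With the sets of arrays as a block the fitted Nnmt difference was -1.05, against -2.39 without it, and without shSLY replicate 3 it was -2.05.

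Differences in the other direction were smaller. Klhl9, a substrate adaptor of cullin ubiquitin ligases, had 5.88, 6.36, 6.07 and 6.12 on the WT arrays, against a lowest of 4.45, a median of 5.27 and a highest of 6.08 on the knockdown arrays, a difference of 0.86 (SE 0.14; adjusted p = 0.00764). Wrap53, a protein of Cajal bodies and telomerase, had 5.75, 5.68, 5.84 and 5.65 on the WT arrays, against a lowest of 4.50, a median of 4.85 and a highest of 5.64 on the knockdown arrays, a difference of 0.76 (SE 0.17; adjusted p = 0.0396). The WT values of Wrap53 lay above all knockdown values. The other 8 largest were Cdk15, Agtr1a, Prr13, Fndc3a, Mtfr1l, Chaf1b, Dsg1a and Ppp1r12b, with differences of 0.74 to 0.84. All but Ppp1r12b overlapped with the knockdown arrays. Fndc3a had 7.72 to 8.00 on the WT arrays, against a lowest of 5.53, a median of 6.27 and a highest of 9.30 on the knockdown arrays. The highest knockdown value of Agtr1a, 10.43, was above all its WT values. The contrast with the mean of the lines does not give the direction in each line.

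Klk1b26, Klk1, Klk1b5, Stfa1, Tgif2lx1 and Tmem86a were called under every alternative in which they were tested. Stfa1 and Tmem86a were not tested in the run that required a detection p under 0.01 on every array. Nnmt, Wrap53, Mtfr1l, Dsg1a and Ppp1r12b missed the threshold without any 1 of the WT arrays, Agtr1a and Tex11 without WT replicate 1, 3 or 4, and Cypt15 without WT replicate 3 or 4. With the sets of arrays that share a background pattern as a block, 9 of the named genes missed it, with differences of 0.73 for Klhl9, 0.54 for Cdk15, 0.40 for Wrap53, 0.35 for Mtfr1l, 0.40 for Dsg1a, 0.67 for Ppp1r12b, -1.04 for Arhgap8, -0.84 for Cypt15 and -0.62 for Tex11. Without WT replicate 1, 3 or 4 in turn, 68, 76 and 74 genes were called, and with that block 130 were, of which 77 were among the 181. Median scaling turned the balance to 189 higher and 32 lower in WT, beside a shift of the median of all genes by 0.233 on the log2 scale, so these directions hold relative to quantile-normalized arrays.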

How the data were processed

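Total RNA of WT and knockdown round spermatids was measured on 13 arrays, and groups follow the sample labels. The authors deposited bead intensities per probe, not normalized, and a detection p-value for each, which the authors' software derives from negative control beads. A table of normalized intensity values by the authors served as an alternative. The submitters' processing notes name GenomeStudio 2011.1. A single gene name was given for 34885 probes, several for 18 and none for 10378, and 34807 named probes matched RefSeq by gene identifier. A gene was shown by its probe of highest mean signal.

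Intensities were normalized by neqc (offset 16) in limma 3.58.1 under R 4.3.3. For the comparison with the knockdown lines, the 20250 probes detected on 3 or more arrays entered, group means were fitted over all arrays (9 residual and 5.64 prior degrees of freedom), and WT was contrasted with the mean of the lines. On simulated data for this comparison (14660 genes), 46% of genes changed 1.5-fold and 86% of those changed 2-fold were recovered, with 3 unchanged genes called. The simulated noise was independent between genes and arrays and held no sets of arrays with a shared background pattern. These figures therefore do not give the error rate of the real comparison. Figures used matplotlib 3.10.9 under Python 3.11.15.

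The samples, lists, pairs and tests were chosen with earlier results of these data known. Genes named are list and pair members, the 25 brightest, the 10 largest differences each way between the pairs of WT arrays and in the knockdown comparison, and the 5 with the largest gap of 1 array. Other genes are said to be chosen after their values were seen. Array sets come from Ward clustering of the 20382 probes that no array detected, into 3 sets. They put WT 1 and 2 with shSLY 1 and 2, and WT 3 and 4 with shSLX1 1 and 2. The remaining set held shSLX1shSLY 1 to 3, shSLY 3 and shSLX1 3, and no WT array. All arrays of the shSLX1shSLY line thus lay in 1 set, and telling its genotype from that set rests on shSLY 3 and shSLX1 3 alone. The Illumina error model of the methods was not used here.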

Additional observations from a re-analysis of the deposited data

Results flagged for a closer look

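Of 99 values tested over the 4 WT arrays, 3 had a single array beyond Dixon's critical value for 4 samples, and chance flags about 1 in 20. The summed level of macrophage genes was 1220 on WT 2, against 963 to 980 on the other WT arrays. Most of this sum was Fcgr3, whose own normalized level was not highest on WT 2. Ldhc had a neqc value of 14.94 on WT 1 and 15.25 on each of the others, where its probe was the brightest of the array and quantile normalization gives the same value. Gpx4 had a neqc value of 14.34 on WT 1, the lowest of the 4.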

How the results depend on the processing

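Detection counts were stable. Named genes detected on all WT arrays numbered 8570, 7711 at a detection p under 0.01, 9295 when 3 of 4 arrays sufficed, 8553 with the brightest probe only, and 8623 to 9042 without each WT array in turn. Without WT replicate 3, 2 endothelial genes were detected in place of 1.

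The 658 genes that split the pairs of WT arrays became 264 without background correction, 343 with normexp at an offset of 50, 265 in the authors' normalized values, 2005 with median scaling and 84 at a 2-fold threshold. Without a filter 852 passed and at a detection p under 0.01 583. Higher in WT 1 and 2 were 130, 170, 130, 1950 and 42 of these under the first 5 settings in turn, and 134, 173, 135, 55 and 42 were lower. The larger SD between pairs than within them held in all 4 normalizations.

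The 181 genes that set WT apart from the knockdown lines became 87 without background correction, 105 with normexp, 83 in the authors' values, 221 with median scaling, 123 without a filter, 135 at a detection p under 0.01, 248 with array weights and 241 without a fold threshold. Leaving out 1 array gave 68 to 226. With the replicate number as a block (replicate block) 65 were called. Deviations of same-numbered arrays from their group means correlated at 0.113, 0.247 and 0.25 for WT and shSLY, at -0.185 to -0.0485 for WT and shSLX1, and at -0.0269 to 0.0485 for WT and shSLX1shSLY. Only same-numbered arrays were compared, and WT 1 and 2 lie in the same array set as shSLY 1 and 2. These correlations therefore cannot decide whether the numbers pair the arrays, and neither labels nor methods give a pairing. Over all pairs of a named gene and an alternative that tested it, the call was lost in 88 and no called difference turned its sign. The cause was not tested. Depth has no meaning for arrays, and signal over background limits what can be said of dim probes.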
